A study of Hordeum vulgare with 12 samples.

Results

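The comparison of mutant and wild-type (WT) barley inflorescences at the stage labelled W2.0 covered 18974 of the 29014 gene identifiers in the deposited table. A gene was kept when it reached at least 1 FPKM (reads per gene, scaled to gene length and to the depth of the library) in the mutant or the WT column of that stage. Each column is the authors' mean of 3 libraries. The difference between genotypes was taken as log2(FPKM + 1) in the mutant minus log2(FPKM + 1) in WT, and a difference of at least 1 is called 2-fold below. With the added 1 FPKM this measure understates the change of low genes. Of the kept genes, 17757 reached 1 FPKM in both genotypes, 746 in the mutant alone and 471 in WT alone.

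All plants were Hordeum vulgare of cultivar Golden Promise, a spring barley much used for transformation, grown under normal conditions. RNA came from inflorescences, with 15 to 20 spikes pooled for each of 3 biological replicates, so that each library averages over many meristems. The labels give the genotypes as mutant and WT, and do not say which gene is mutated, which allele was used or whether the mutant is 1 line. The series speaks of FEA (FASCIATED EAR), so a check of the mutated gene itself could not be made. The series also holds 3 mutant and 3 WT libraries of a later stage, labelled W3.5, while its design text names W3.0, and the sample labels were followed. No treatment is given for any group.

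As background, the shoot tip and the young spike of grasses grow from meristems, small domes of dividing cells that renew themselves while giving off organs at their flanks. In the CLAVATA pathway, small CLE peptides made in the dome are sensed by leucine-rich repeat receptors and hold back WUSCHEL, the homeobox factor that maintains the stem cells. The maize FASCIATED EAR genes act in or beside this pathway, and maize plants that lack one of them form enlarged, flattened ear tips. In barley the spike meristem gives rise to spikelet meristems in rows, and each spikelet meristem then forms a floret. The labels do not say which scale the W of the stage names refers to. The genes below carry only identifiers, because neither the files nor the reference tables used here pair any of them with a name or a function (0 identifiers matched). No marker of meristem, leaf or stem tissue could therefore be looked up, and the labelled tissue was not checked against markers. The digit before H in an identifier is the chromosome it was assigned to.

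Most genes lay close to equal in both genotypes. The median difference was 0.019, the central 90% of genes lay between -0.56 and 0.71, and 85.1% lay within 0.5 of 0. At the 2-fold mark stood 864 genes (4.55% of all kept genes), of which 496 were higher in the mutant (2.61%) and 368 were lower (1.94%). With a pseudocount of 0.1 FPKM in place of 1 FPKM, 1394 genes stood at that mark, 854 higher and 540 lower. These are counts of the authors' means, which carry no error of their own, and no test applies to them. RNA from whole inflorescences cannot tell fewer cells that use a gene from less of its RNA per cell.

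**Figure D1:**
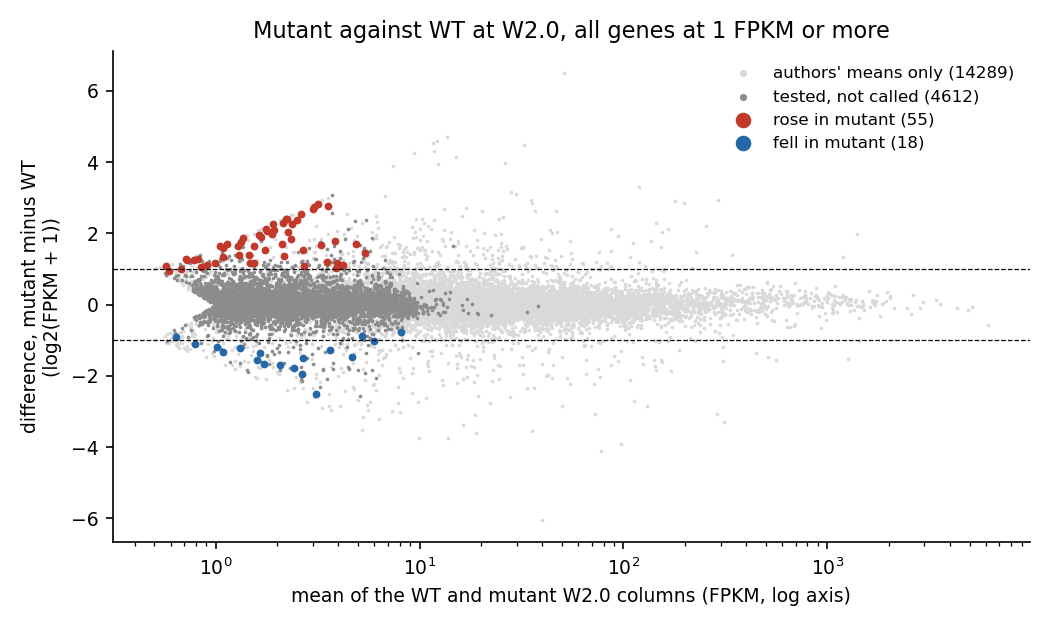
Difference between mutant and WT at W2.0 on the log2(FPKM + 1) scale against the mean of both columns (FPKM, log axis), 1 point per gene for all 18974 genes. The 55 genes that rose and the 18 that fell in the test of recovered libraries are coloured, and they lie at low levels because libraries could be recovered almost only there, while dashed lines mark 2-fold.

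The share of genes at least 2-fold apart shrank from low to middle levels, and above 64 FPKM lower genes outnumbered higher ones, counts for which no test was made. Levels here are the mean of both W2.0 columns. Of the 4287 genes at 1 to 4 FPKM, 170 had a higher mutant mean (3.97%) and 117 a lower one (2.73%). Of the 6605 genes at 4 to 16 FPKM, 173 were higher (2.62%) and 110 lower (1.67%), and of the 5619 genes at 16 to 64 FPKM, 90 were higher (1.6%) and 64 lower (1.14%). At 64 FPKM and above but short of the 379 most abundant genes, 27 of 1603 genes were higher (1.68%) and 36 lower (2.25%), and among those 379 genes 4 were higher and 9 lower. The remaining 481 genes had a mean of both columns below 1 FPKM and held 32 of each direction.

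**Figure D2:**
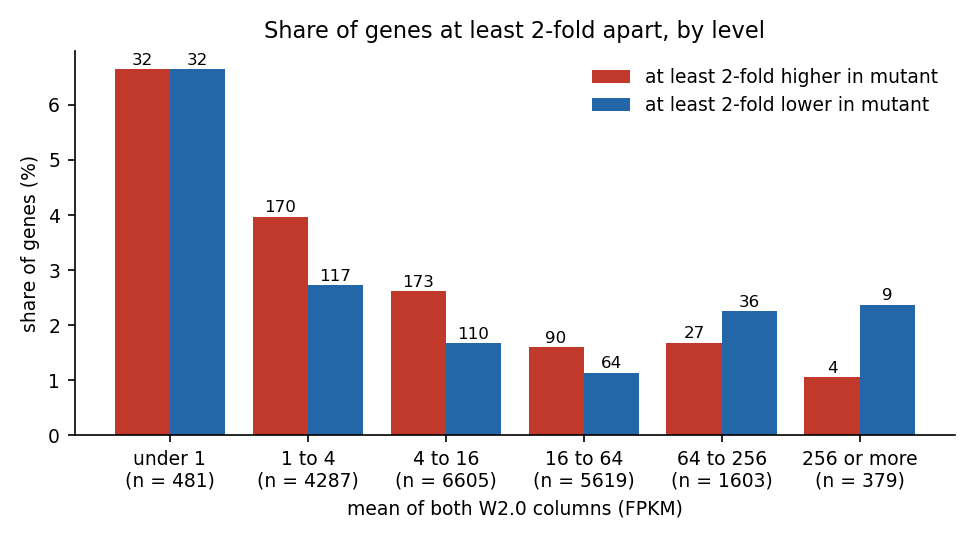
Share of genes (%) at least 2-fold higher or lower in the mutant at W2.0 by the authors' means, in 6 classes of the mean of both columns (FPKM), with the number of genes above each bar. Higher genes outnumber lower ones from 1 to 64 FPKM, and lower genes outnumber higher ones above it.

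Below 16 FPKM, the widest differences of the means took in genes seen in one genotype alone. At 4 to 16 FPKM, HORVU7Hr1G103710 on 7H was listed at 0.0889 FPKM for WT and 27.2 FPKM for the mutant, and again at 0 and 31.3 FPKM at W3.5. HORVU1Hr1G078500 on 1H was at 0.0535 and 24.4 FPKM, but at 3.01 and 0.0564 FPKM at W3.5, the other way round. HORVU1Hr1G057680 on 1H and HORVU4Hr1G056240 on 4H were at 19.4 and 26.4 FPKM in WT against 0.518 and 1.04 FPKM in the mutant. At W3.5 both were low in WT, at 0.0437 and 0.578 FPKM, with 1.23 and 4.3 FPKM in the mutant. At 1 to 4 FPKM, HORVU6Hr1G053350 on 6H was at 0.0159 and 7.09 FPKM and kept this at W3.5, with 0 and 6.72 FPKM. HORVU5Hr1G076400 on 5H was at 6.63 FPKM in WT and at 0.0292 FPKM in the mutant, whereas at W3.5 it was present in both, at 22.8 and 15.5 FPKM.

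At 16 FPKM and above, 7601 genes were present, 121 of them with a mutant mean 2-fold or more above WT and 109 below it. Among the widest differences were genes near 0 in one genotype and abundant in the other. HORVU4Hr1G050060 on 4H had an authors' mean of 0.145 FPKM in WT against 102 FPKM in mutant spikes. HORVU3Hr1G015730 on 3H went from 1.89 FPKM (WT) to 63.4 FPKM (mutant). Both showed the same contrast at W3.5, in other libraries, with 0.0429 against 120 FPKM and 2.98 against 64.3 FPKM. In the other direction, HORVU6Hr1G018030 on 6H had 79.5 FPKM in WT against 0.219 FPKM in mutant spikes, and at W3.5 it had 70.9 and 0.056 FPKM. HORVU2Hr1G105740 on 2H had 35.8 FPKM in WT against 2.06 FPKM in mutant spikes, but at W3.5 it was low in both genotypes, at 1.07 and 0.0564 FPKM. Of these 4 genes, 3 kept their contrast at the later stage, and the other was abundant only in WT at W2.0.

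Of the 8 genes named at 64 FPKM or more, 3 kept their direction at the later stage. HORVU6Hr1G029190 on 6H had 21.4 FPKM in WT against 218 FPKM in mutant spikes at W2.0, but 226 and 183 FPKM at W3.5. HORVU0Hr1G007480, which is on no placed chromosome, had 41.3 and 318 FPKM at W2.0 and 29.7 and 63.5 FPKM at W3.5, with its direction kept. HORVU2Hr1G070700 and HORVU2Hr1G072930, both on 2H, had 147 and 185 FPKM in WT against 7.66 and 11.2 FPKM in the mutant. At W3.5 the first was low in both genotypes, at 0.4 FPKM (WT) and 1.22 FPKM (mutant), and the second had turned to 13.8 FPKM in WT against 126 FPKM in mutant spikes. In the most abundant class, HORVU1Hr1G004150 on 1H went from 562 FPKM (WT) to 2234 FPKM (mutant) and kept its direction at W3.5, with 641 and 1793 FPKM. HORVU3Hr1G117440 on 3H had 66.9 and 515 FPKM at W2.0 and 60.7 and 115 FPKM at W3.5, a narrower difference in the same direction. HORVU5Hr1G002130 on 5H and HORVU7Hr1G088260 on 7H were at 566 and 513 FPKM in WT against 57.3 and 60.5 FPKM in the mutant. At W3.5 HORVU5Hr1G002130 was high in both genotypes, with 1091 FPKM in WT against 1408 FPKM in mutant spikes, and HORVU7Hr1G088260 was low in both, with 5.51 and 8.5 FPKM.

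The W3.5 columns come from other libraries, and among them a larger share of the higher genes than of the lower genes had the same direction, a description for which no test was made. At W3.5 the mutant mean was 2-fold or more above WT for 367 of the 18974 genes (1.93%) and below it for 153 (0.806%). Of the 496 genes higher at W2.0, 150 were also 2-fold higher at W3.5 (30.2%) and 13 were lower (2.62%). Of the 368 genes lower at W2.0, 41 were also lower at W3.5 (11.1%) and 55 were higher (14.9%). The higher genes had a median difference of 1.37 at W2.0 but 0.42 at W3.5, and the lower genes one of -1.48 at W2.0 but 0.12 at W3.5. At 16 FPKM or more the same held, with 29 of 121 higher genes repeated (24%) against 15 of 109 lower genes (13.8%), while 18 of those 109 were higher at W3.5 (16.5%). W3.5 is another stage as well as another set of libraries, and these cannot be told apart in the means.

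Whole reads of single libraries could be recovered from the printed decimals of the means for 4895 of the kept genes (25.8%), nearly all of them at low to middle levels. A mean of 3 libraries is a sum of 3 whole read numbers, each divided by its library's depth, and this limits the combinations that match 9 or 10 printed digits. Library depths came out at 63298092 to 75896357 reads. Within each group the deepest library is called A and the shallowest C, since the means do not show which is which replicate of the labels. Of the genes at a mean of 16 FPKM or more, 10 were recovered.

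In these libraries, 73 of 5115 genes tested changed at W2.0 (1.43%), with 55 that rose in the mutant (1.08%) and 18 that fell (0.352%). The test was limma on log2(FPKM + 1) over all 12 libraries with Benjamini-Hochberg adjustment, for genes that reached 1 FPKM in at least 3 libraries, and the threshold was an adjusted p of 0.05. The count moved with the test and the libraries, to 28 with limma-voom on the recovered reads (18 rose, 10 fell), 48 in a fit of the W2.0 libraries alone (37 rose, 11 fell) and 132 without mutant library A (107 rose, 25 fell), which held 65 of the 73. Without WT library A it was 57 (36 rose, 21 fell). All 73 belonged to the kept genes, of which 4685 were tested, and the median change of those 4685 was 0.048. The genes that rose had a median change of 1.61 and reached 2.75, and those that fell had a median of -1.34 and reached -2.52. The smallest size among the calls was 0.75. In every one of the 73 genes, all 3 libraries of one genotype lay above all 3 of the other. Such a complete separation was found for 433 of the 4895 recovered genes with the mutant above WT (8.85%) and for 280 with the mutant below (5.72%), so it is not particular to the called genes.

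The genes that rose most were close to 0 in WT. HORVU6Hr1G043740 on 6H had 7.59, 4.19 and 8.98 FPKM in mutant libraries A, B and C against 0, 0.439 and 0.0243 FPKM in WT. HORVU1Hr1G091950 on 1H had 4.51, 7.04 and 6.5 FPKM in the mutant against 0, 0.145 and 0 FPKM in WT. No mutant library of either gene came near a WT library. Their changes were 2.75 ± 0.28 and 2.73 ± 0.20 (SE) on the log2(FPKM + 1) scale, with limma adjusted p of 0.000394 and 8.2e-05. Neither was run with limma-voom, which took only genes with all 12 libraries recovered. The authors' means at W3.5 showed the same contrast, at 0.131 against 12.2 FPKM for HORVU6Hr1G043740 and at 0.00313 against 5.51 FPKM for HORVU1Hr1G091950.

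Of the genes that fell, HORVU4Hr1G065270 on 4H changed most. It had 5.05, 7.22 and 5.63 FPKM in WT libraries A, B and C and 0.433, 0.1 and 0.112 FPKM in the mutant. It fell by 2.52 ± 0.21 (SE), with a limma adjusted p of 7.99e-05, and its libraries were as clearly separate at W3.5, with 4.12 to 7.19 FPKM in WT and 0.312 to 0.372 FPKM in the mutant. HORVU5Hr1G111570 on 5H had 3.38, 5.79 and 5.22 FPKM in WT and 0, 1.11 and 0.421 FPKM in the mutant. It fell by 1.98 ± 0.27 (SE; limma adjusted p 0.00178), a call lost with a pseudocount of 0.1 FPKM (adjusted p 0.106) and with limma-voom (adjusted p 0.127). At W3.5 this gene was low in both genotypes, with at most 0.353 FPKM in WT and 0 in all 3 mutant libraries.

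Genes at 4 to 16 FPKM gave 8 calls among 1254 tested, 4 in each direction. That is a smaller share than the 73 of 5115 (1.43%) over all tested genes, and the changes were smaller. Recovery shapes both, since it fell to 8.31% at a higher W2.0 mean of 8 to 16 FPKM and 0.256% at 16 to 32 FPKM. Genes of this class that are near 0 in either genotype have such means and were seldom tested. HORVU7Hr1G103710, with a difference of 4.70 by the authors' means, was not recovered. HORVU7Hr1G020180 on 7H had 8.44, 9.11 and 6.38 FPKM in the mutant and 0.858, 1.59 and 2.85 FPKM in WT. It rose by 1.75 ± 0.29 (SE; limma adjusted p 0.00699), a call lost with limma-voom at an adjusted p of 0.0555. HORVU2Hr1G097030 on 2H had 8.92, 7.06 and 9.22 FPKM in the mutant and 2.4, 2.73 and 2.12 FPKM in WT, a rise of 1.46 ± 0.19 (SE; limma adjusted p 0.00232) that was not run with limma-voom. Both groups of this gene were tight, with SDs of 1.17 and 0.306 FPKM (n = 3) around means of 8.4 and 2.41 FPKM. HORVU7Hr1G119300 on 7H had 6.95, 7.34 and 7.6 FPKM in WT and 1.53, 2.28 and 2.16 FPKM in the mutant, and fell by 1.48 ± 0.16 (SE; limma adjusted p 0.000238). HORVU5Hr1G015600 on 5H had 6.81, 11.3 and 7.06 FPKM in WT and 4.09, 3.58 and 3.13 FPKM in the mutant. It fell by 1.00 ± 0.19 (SE; limma adjusted p 0.0146), and this call was lost in 5 of 21 alternatives, among them leaving out mutant library B (0.0521), mutant library C (0.0707) or WT library B (0.0551).

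**Figure D3:**
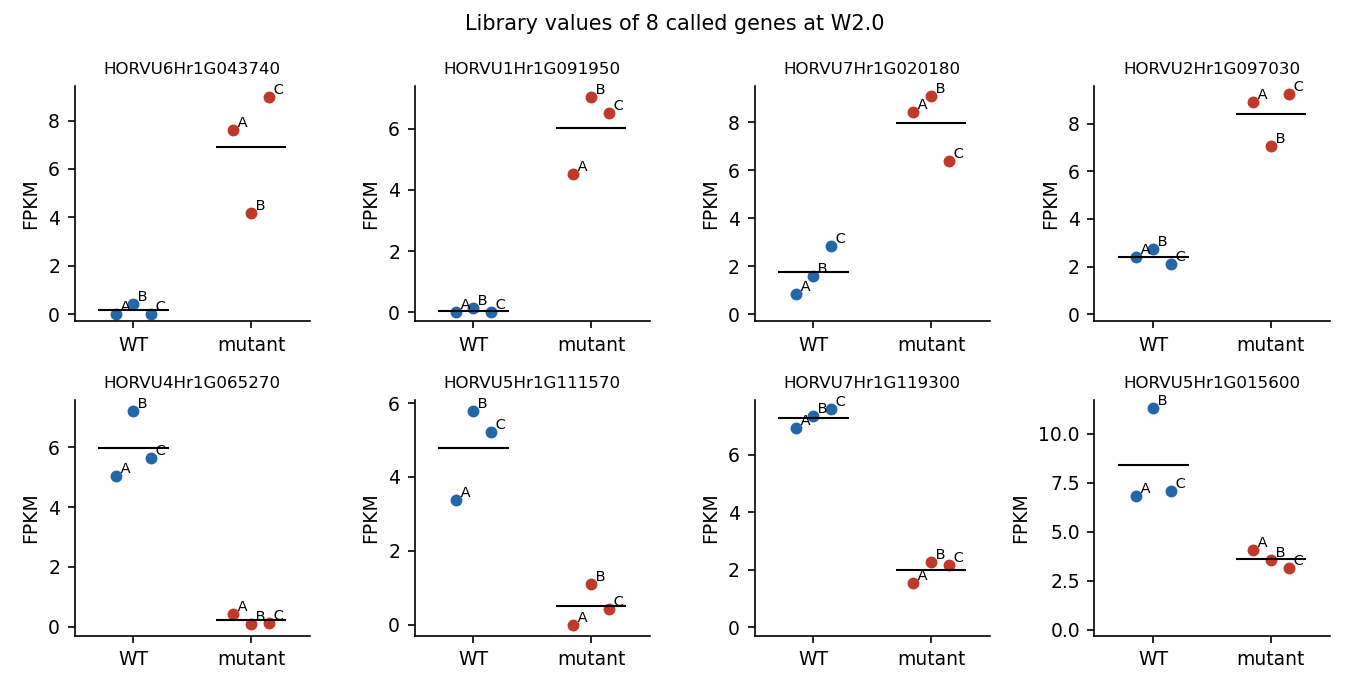
Recovered FPKM of 8 called genes in the 3 WT and 3 mutant libraries (A, B, C) of W2.0, 1 panel per gene, with the group mean as a line. The upper row holds genes that rose and the lower row genes that fell, from 1 to 4 FPKM on the left and from 4 to 16 FPKM on the right, and in each panel all libraries of one genotype lie above those of the other.

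The genes that rose at W2.0 were mostly also higher at W3.5, while fewer than 1 in 2 of the genes that fell were also lower there. By the authors' means, 42 of the 55 genes that rose were again 2-fold or more above WT at W3.5 (76.4%) and 0 were lower. Of the 18 genes that fell, 7 were again 2-fold or more below WT at W3.5 (38.9%) and 0 were higher, with a median difference of -0.86. Over all kept genes those shares were 1.93% above and 0.806% below, and no test was made of the difference between the directions. Of those 18 genes, 12 reached 1 FPKM in either W3.5 column, against 53 of the 55 that rose. The W3.5 libraries entered the filter on tested genes and the estimate of spread behind the calls, but not the W2.0 difference itself. Of the recovered genes at least 2-fold apart by mean, 47 of 125 lower genes and 15 of 164 higher genes were not tested. The W3.5 shares of called genes are thus not free of that filter.

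Not every 2-fold difference of the means was shared by the libraries, and the share that was differed between the directions, a description with no test. Of the 164 recovered genes with a mutant mean 2-fold or more above WT, 106 had all 3 mutant libraries above all 3 WT libraries (64.6%). Of the 125 recovered genes that were at least 2-fold lower, 35 had complete separation (28%). For comparison, the 4895 recovered genes as a whole were separate in 8.85% with the mutant higher and in 5.72% with it lower. The 164 and the 125 genes were picked by the means of the same libraries, which partly builds separation in. Their shares are therefore no test of it. In 68 of those 125 genes (54.4%), a single WT library held at least 80% of the WT sum, and it was library B in 55 and library A in 13. Among the 164 higher genes, a single mutant library held that share in 9 (5.49%), 1 time library A, 3 times B and 5 times C. The median share of the highest library was 82.3% for the lower genes and 51.5% for the higher genes.

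**Figure D4:**
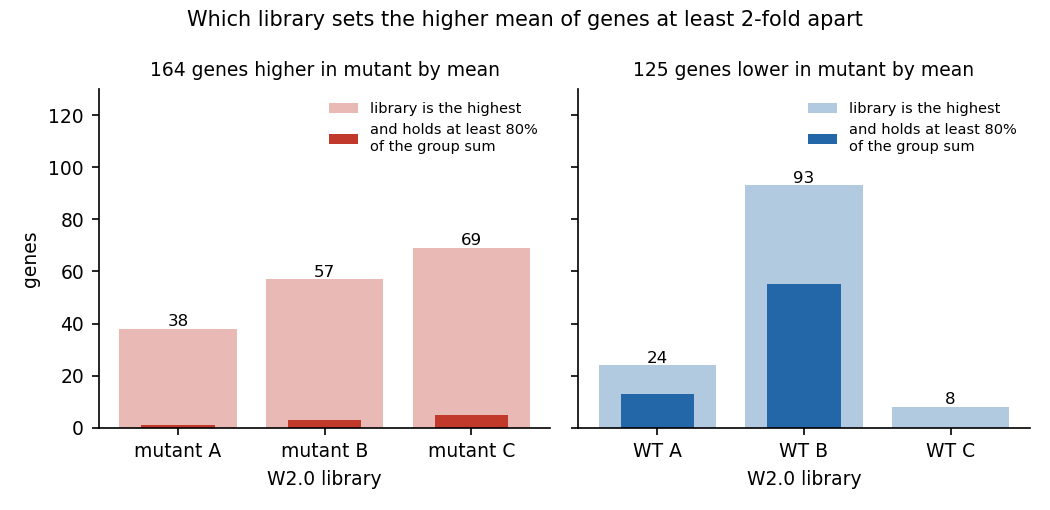
Number of recovered genes at least 2-fold apart by mean at W2.0 for which each library was the highest of its group (pale bars, number above) and held at least 80% of the group's sum (dark bars), for the 164 genes higher in the mutant and the 125 genes lower. WT library B was the highest WT library in 93 of the 125 lower genes, whereas no mutant library exceeded 69 of the 164 higher genes.

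HORVU7Hr1G087690 on 7H is an example of a mean set by 1 library. It was the gene with the widest lower mean at 1 to 4 FPKM, with an authors' mean of 7.3 FPKM in WT against 0.0648 FPKM in mutant spikes. Its recovered values were 21.9, 0 and 0.056 FPKM in WT libraries A, B and C and 0, 0 and 0.194 FPKM in the mutant, which puts nearly the whole WT mean in library A. They belong to a gene length of 1084 bases, and at 1626 bases another combination matched the printed digits of all 4 columns, with 6.47, 10.3 and 5.18 FPKM in WT. Combinations were listed only for the shorter lengths of the range searched, which ran to 12000 bases, so others may exist. The combination at 1084 bases was kept because its probability in the search exceeded 0.99. Like all library values here it is the most probable combination rather than a direct count. The gene did not reach 1 FPKM in 3 libraries and was not tested. The widest higher mean of the same level, that of HORVU1Hr1G073970 on 1H, was 0.00857 FPKM in WT against 7.46 FPKM in mutant spikes. The mutant libraries held 16.2, 1.53 and 4.69 FPKM against 0, 0 and 0.0257 FPKM in WT, separate but with an SD as large as the mean, 7.7 FPKM (n = 3). Its change of 2.64 ± 0.96 (SE) missed the threshold (limma adjusted p 0.322), and at W3.5 it was present in WT library B alone, at 19.7 FPKM.

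Leaving out WT library B cut the lower genes by more than leaving out any other of the 6 W2.0 libraries. Without it, 62 recovered genes were at least 2-fold lower, 45 of them from the 125 found with all libraries, and 190 were higher. With the other W2.0 libraries left out in turn, the lower genes numbered 124 to 179. Leaving out mutant library A raised the higher genes from 164 to 252, 148 of them from the original 164. With the median of the 3 libraries in place of their mean, 174 genes were higher and 86 lower. Over all 4241 recovered genes at 1 FPKM or more in WT, library B was the highest WT library in 1431, library A in 1438 and library C in 1372. It alone held at least 80% of the sum in 92 of these genes, against 16 for A and 2 for C, and the 3 mutant libraries held 7, 16 and 33 such genes of 4492. What these genes are, and whether the spikes of library B differed in age or tissue, was not tested, since no marker could be named.

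**Figure D5:**
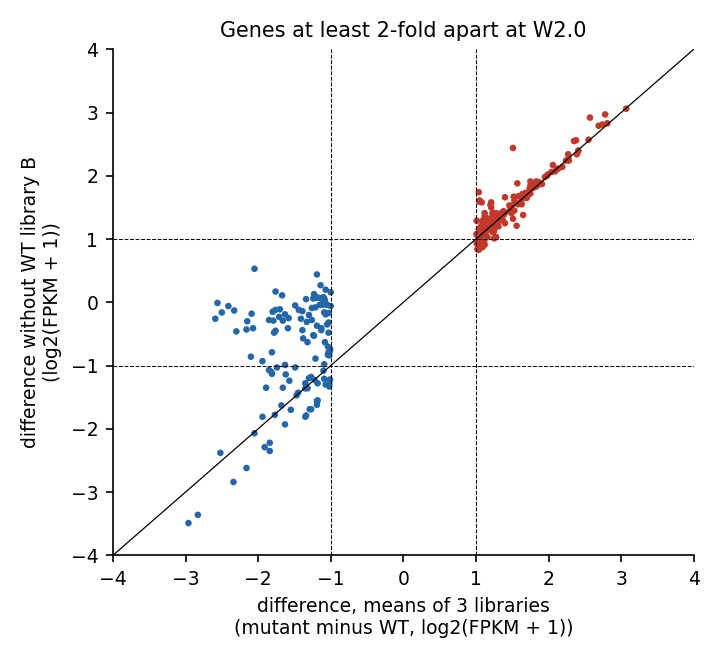
Difference between mutant and WT at W2.0 on the log2(FPKM + 1) scale with the mean of all 3 WT libraries (horizontal) and without WT library B (vertical), for the 289 recovered genes at least 2-fold apart by mean (higher in the mutant in red, lower in blue). The solid line marks equal values and the dashed lines 2-fold, and 45 of the 125 lower genes lie below the lower dashed line on both axes. B held at least 80% of the WT sum in 55 of the 125, and a shift of those genes when B is left out follows from that share.

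The genes whose WT mean rested on library B were mostly below 1 FPKM in both W3.5 columns. Of those 55 genes, 12 reached 1 FPKM in either W3.5 column, and of all 68 genes with a single WT library at 80% or more, 19 did. The same level was reached by 22 of the 35 lower genes with complete separation and by 18326 of all 18974 kept genes, and no test of these differences was made. The kept genes span all levels, whereas recovered genes lie mostly at low to middle levels. Of genes with a W2.0 level below 1 FPKM, 8 of 32 lower and 17 of 32 higher genes reached 1 FPKM in either W3.5 column. At 1 to 4 FPKM, 55 of 117 lower and 145 of 170 higher genes did. At W3.5 the mutant mean was 2-fold or more above WT for 9 of the 55 (16.4%) and below it for 0. Of the 35 lower genes with complete separation, 9 were also lower at W3.5 (25.7%) and 2 were higher (5.71%). Of the 106 higher genes with complete separation, 55 were also higher at W3.5 (51.9%) and 1 was lower.

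Genes found in one genotype alone were few. At 1 FPKM or more in the mutant and below 0.1 FPKM in WT stood 59 genes, with a median of 2.85 FPKM and 13 of them at 5 FPKM or more. The reverse held for 41 genes, with a median of 1.44 FPKM and 4 of them at 5 FPKM or more. Of the 33 recovered genes found in the mutant alone, 30 were separate in all libraries and 3 rested on 1 library. Of the 29 recovered genes found in WT alone, 7 were separate and 24 rested on 1 library, which was library B in 22. Over all 4895 recovered genes, 8.85% were separate with the mutant above and 5.72% with it below. Both lists were picked by the same means, which largely fixes separation in advance unless 1 library holds the mean, so these counts are no test. HORVU7Hr1G103710, described above, was the most abundant of the genes found in the mutant alone.

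Genes at least 2-fold apart lay on all chromosomes. By the digit of the identifier, the share of genes at least 2-fold higher in the mutant ran from 2.01% on 5H to 3.09% on 1H, and the share at least 2-fold lower from 1.65% on 6H to 2.19% on 3H. On the placed chromosomes the called share of tested genes ran from 1.1% on 7H to 2.66% on 4H, where 9 genes rose and 4 fell among 488 tested. Among the 323 tested genes on no placed chromosome it was 0.929%. Neighbours in the order of the identifiers that were both at least 2-fold apart mostly shared their direction. Among 18114 pairs of adjacent kept genes, both were higher in 66 (0.364%), both lower in 39 (0.215%) and 19 pairs pointed in opposite directions (0.105%). Of the 475 placed higher genes, 112 had a higher neighbour, and of the 353 placed lower genes, 70 had a lower one. Identifier order stands for position here, and neighbours with similar sequence may share reads.

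Of 77 runs of adjacent genes with the same direction, 20 held at least 3 genes, and those named here were chosen after their values were seen. The longest, on 6H from HORVU6Hr1G000680 to HORVU6Hr1G001100, held 8 genes, all higher in the mutant, with WT means of 0.287 to 17.1 FPKM and mutant means of 2.82 to 71.8 FPKM. HORVU6Hr1G000720, 1 of its 4 recovered genes, had 1.44, 9.58 and 15.3 FPKM in mutant libraries A, B and C and 0.28, 1.42 and 1.07 FPKM in WT. HORVU6Hr1G001100 had 0.287, 7.41 and 13.6 FPKM in the mutant and 0.0321, 0.945 and 0.11 FPKM in WT. In all 4 recovered genes mutant libraries B and C were high and A was low, within the range of WT or little above it, and the 3 of them that were tested missed the threshold (limma adjusted p 0.212 to 0.42). The run of 3 genes on 1H from HORVU1Hr1G000330 to HORVU1Hr1G000350 showed the same in its 1 recovered gene, HORVU1Hr1G000330, which had 1.23, 10.8 and 11.6 FPKM in the mutant and 0.734 to 1.36 FPKM in WT.

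In a run on 2H and another on 4H, recovered genes were higher in all mutant libraries but for 1 gene. HORVU2Hr1G077340, HORVU2Hr1G077350 and HORVU2Hr1G077360 on 2H all rose, from means of 0.194 to 0.346 FPKM in WT to 1.49 to 2.55 FPKM in the mutant, with changes of 1.04, 1.33 and 1.38 and limma adjusted p of 0.0385, 0.0131 and 0.0182. Their mutant means at W3.5 were higher still, at 2.12 to 3.63 FPKM, against 0.472 to 0.611 FPKM in WT. On 4H, 3 of the 4 genes from HORVU4Hr1G062130 to HORVU4Hr1G062200 rose, namely HORVU4Hr1G062130, HORVU4Hr1G062190 and HORVU4Hr1G062200, and HORVU4Hr1G062130 did so by 2.23 (limma adjusted p 0.00252), with 7.82, 1.71 and 5.05 FPKM in the mutant against 0.0471 to 0.205 FPKM in WT. The fourth, HORVU4Hr1G062140, had an adjusted p of 0.385, with 4.92, 0.619 and 2.85 FPKM in the mutant and 0.229 to 0.959 FPKM in WT. None of the 6 calls in these runs held under all 21 alternatives. With limma-voom all 6 were lost (adjusted p 0.146 to 0.381), and that of HORVU4Hr1G062190, at an adjusted p of 0.049 with limma, was lost in 18 of the 21.

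In 2 runs of lower genes on 2H, the recovered genes rested on WT library B. HORVU2Hr1G090730, of the 4 genes from HORVU2Hr1G090690 to HORVU2Hr1G090760, had 0.443, 16.3 and 1.52 FPKM in WT libraries A, B and C and 0.293, 0.989 and 0.0335 FPKM in the mutant. HORVU2Hr1G090740 beside it had 0.464, 5.8 and 0.158 FPKM in WT. Of the 3 genes from HORVU2Hr1G028660 to HORVU2Hr1G028720, HORVU2Hr1G028670 had 0.0731, 16.1 and 0.837 FPKM in WT and 0.0371 to 0.54 FPKM in the mutant, while its W3.5 means were 0.0265 FPKM in WT against 4.7 FPKM in mutant spikes. In a run on 3H from HORVU3Hr1G011820 to HORVU3Hr1G011860, the 1 recovered gene, HORVU3Hr1G011860, had 0, 2.79 and 0.602 FPKM in WT libraries A, B and C. Also on 3H, the run from HORVU3Hr1G016860 to HORVU3Hr1G016900 was not of this kind. Its 1 recovered gene, HORVU3Hr1G016900, had 11.9, 10.2 and 9.31 FPKM in WT and 2.21, 2.18 and 0.926 FPKM in the mutant, separate in all libraries, with a change of -2.08 and a limma adjusted p of 0.147. At W3.5 the means of this run were the other way round, at 0, 1.87 and 0.162 FPKM in WT against 3, 6.52 and 2.11 FPKM in the mutant.

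The spread between replicates at W2.0 bears on all of these counts. The median coefficient of variation of recovered genes at 1 FPKM or more was 29.5% among the mutant libraries and 21.7% among the WT libraries. Across the 4123 kept genes with all 12 libraries recovered, tested or not, correlations of log2(FPKM + 1) between WT libraries were 0.610 for A with B, 0.797 for A with C and 0.756 for B with C. Between mutant libraries they were 0.695, 0.623 and 0.693 in the same order. Mutant libraries A, B and C had mean correlations of 0.659, 0.694 and 0.658 with the other mutant libraries of W2.0, and of 0.759, 0.720 and 0.646 with those of W3.5. WT libraries A, B and C had mean correlations of 0.778, 0.534 and 0.740 with the WT libraries of W3.5. These values are across genes of low to middle level that share libraries, and genes are not independent replicates.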

How the data were processed

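RNA was sequenced from 12 libraries, 3 for each of 4 groups, and those of W2.0 are compared here. Per the labels' protocols, the TruSeq RNA kit version 2 was used, which leaves the strand unmarked. The submitters' processing notes name FastQC, HISAT2 2.0.0 and HTSeq 0.11.2. The genome build, the annotation and the treatment of reads with several matches were not given in the sources used here. Near-identical or overlapping genes may therefore hold reads of one another. The deposited table held 4 columns of FPKM, 1 per group, which the authors had averaged over 3 libraries, a unit read from the values because no header states it.

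Whole reads per library were recovered by a search for read numbers and a gene length that match the printed digits of all 4 columns (python 3.11.15, numpy 2.4.6, numba 0.67.0). A solution was kept if its probability for the W2.0 columns exceeded 0.99. The search was tested on simulated data that included genes dominated by 1 library. There each gene it accepted had the right FPKM in every W2.0 library, which does not check reads and length separately. Acceptance depended on the simulated spread between libraries (dispersion), with 217 of 400 genes at 0.02, 117 of 400 at 2.0 and 142 of 400 at 6.0. Recovered genes may therefore lean towards tight replicates. The simulated gene lengths were drawn from the same distribution that the search used as its weight. With each deposited column shuffled across genes, so that rows mixed values of different genes, it still accepted 2 of 1500 rows, against 796 of the same 1500 genes as deposited, so a few of the library values may be wrong. Recovery fell with level, from 89.6% of genes whose higher mean lay at 1 to 2 FPKM to 8.31% at 8 to 16 FPKM.

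limma 3.58.1 in R 4.3.3 modelled log2(FPKM + 1) by 4 group means over 12 libraries, with a trend of the variance on the mean. Of the tested genes, 4340 had all 12 libraries and 775 lacked those of a W3.5 column, which were left missing. Tested genes had a median of 168 reads per gene and library (central 90% 17 to 571). An unadjusted p under 0.05 was found for 550 genes (10.8%). Named genes are the 2 of largest change in each direction, among calls at 1 to 4 and 4 to 16 FPKM and among the means of each level class, a shorter form of the planned rule of 10 and 4. The members, lists and tests were chosen with earlier results of these data known, and lists of named pathways and tissue markers could not be applied because 0 identifiers matched a name.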

Additional observations from a re-analysis of the deposited data

How the results depend on the processing

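The 14 called genes named, 8 by rule and 6 in runs, kept their direction under all alternatives run on them. Of the 8, 5 kept their call, 3 of them (HORVU1Hr1G091950, HORVU2Hr1G097030 and HORVU6Hr1G043740) without limma-voom, which needs all 12 libraries, and so under 19 rather than 21 alternatives. Of the 6, 0 did. Calls numbered 28 with limma-voom on the recovered reads, 18 that rose and 10 that fell, and all 28 were among the 73. A fit of the 6 W2.0 libraries alone gave 48, of which 44 were shared, with 37 that rose and 11 that fell. Leaving out 1 library at a time gave 55 to 132 calls, with 36 to 107 that rose and 12 to 25 that fell. Other filters, a pseudocount of 0.1 FPKM, size factors by the median of ratios or the upper quartile, a 2-fold minimum and genes with all 12 libraries recovered gave 56 to 79 calls. By the authors' means, a pseudocount of 0.1 FPKM gave 1394 genes at least 2-fold apart, 854 higher and 540 lower, and the other alternatives stayed within 1.5 times. For recovered genes at least 2-fold apart by mean, leaving out 1 library, chosen after seeing the data, gave 252 to 376 in all, 159 to 252 higher and 62 to 179 lower. The cause of these shifts was not tested. No paired analysis was possible because the columns are group means and the recovered libraries carry no replicate number. Of recovered read numbers from 4 to 23, 38% were divisible by 4, and 28.3%, 18.7% and 15% left remainders of 1, 2 and 3. The range starts at 4, so read numbers that become rarer as they rise also give shares in this order. These shares therefore cannot show whether the counted reads are independent fragments, which was not tested. Above 16 FPKM few libraries were recovered, and differences there rest on means with no error.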
